A study of Homo sapiens with 4 samples.

Results

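The genes described here encode the retinoblastoma (RB) pocket proteins, the subunits of the DREAM complex and the transcription factors MYBL2 and FOXM1. They are RB1, RBL1, RBL2, LIN9, LIN37, LIN52, LIN54, RBBP4, MYBL2 and FOXM1, chosen by symbol for these roles, and all 10 were among the 27658 gene identifiers in the tables. Total RNA was sequenced in the human prostate cancer lines DU145 and PC-3, each kept for 48 h in OICR-9429 or in DMSO, its solvent. The groups were DU145 with 120 µM OICR-9429, DU145 with DMSO, PC-3 with 150 µM OICR-9429 and PC-3 with DMSO, with 1 library each. OICR-9429 binds WDR5, an adaptor protein, and blocks its contact with the MLL methyltransferase. DU145 is an androgen-independent line that carries a truncating RB1 mutation and lacks functional RB protein, while PC-3 retains RB1. DU145 was grown in DMEM and PC-3 in RPMI1640, so line, medium and dose differ together.

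Pocket proteins bind E2F transcription factors and hold their target genes silent until cyclin-dependent kinases phosphorylate them. RB1 binds mainly the activating E2Fs. RBL1 (p107) and RBL2 (p130) join E2F4 or E2F5, a TFDP partner and the MuvB core (LIN9, LIN37, LIN52, LIN54 and RBBP4) in the DREAM complex, which represses cell cycle genes in quiescent cells. When cells enter S phase the MuvB core leaves the pocket protein and binds MYBL2 (B-MYB), and FOXM1 joins later, which activates the genes of G2 and mitosis. RBL1, MYBL2 and FOXM1 are themselves cell cycle genes, whereas RB1 and RBL2 are transcribed in resting and cycling cells alike. In bulk RNA a smaller share of cycling cells and less transcript per cell cannot be told apart.

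The promoters of MYBL2, RBL1 and LIN9 are shown because these genes stood at least 2-fold lower with OICR-9429 in at least 1 line, and that of RBL2 because it stayed near its DMSO level in PC-3. Windows of 250 bases before to 50 bases after a start were taken from RefSeq (GRCh38.p14), which had windows for 9 of the 10 genes; FOXM1 is the other. DREAM and E2F contact DNA at the cell cycle genes homology region (CHR, searched as TTTGAA or TTCGAA) and at E2F sites (searched as TTCCCGC or TTGGCGC or TTCGCGC or GGCGGGA), on both strands. TTCCCGC and the reverse complement of GGCGGGA can overlap. Capitals mark these matches. The MYBL2 window is chr20:43666864-43667163 on the plus strand, the RBL1 window chr20:37095948-37096247 on the minus strand, the LIN9 window chr1:226309115-226309414 on the minus strand and the RBL2 window chr16:53434221-53434520 on the plus strand.
MYBL2: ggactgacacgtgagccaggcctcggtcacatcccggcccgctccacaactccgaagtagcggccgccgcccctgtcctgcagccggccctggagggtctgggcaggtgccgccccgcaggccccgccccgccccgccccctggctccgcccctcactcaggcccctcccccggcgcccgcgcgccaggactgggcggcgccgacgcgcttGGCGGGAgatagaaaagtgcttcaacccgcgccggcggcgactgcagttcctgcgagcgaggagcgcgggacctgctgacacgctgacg
RBL1: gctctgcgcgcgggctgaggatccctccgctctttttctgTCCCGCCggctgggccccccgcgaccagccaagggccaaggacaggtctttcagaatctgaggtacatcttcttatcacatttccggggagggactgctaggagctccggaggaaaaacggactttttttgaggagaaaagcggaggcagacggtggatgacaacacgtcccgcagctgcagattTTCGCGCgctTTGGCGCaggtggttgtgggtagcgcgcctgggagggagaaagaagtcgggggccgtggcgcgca
LIN9: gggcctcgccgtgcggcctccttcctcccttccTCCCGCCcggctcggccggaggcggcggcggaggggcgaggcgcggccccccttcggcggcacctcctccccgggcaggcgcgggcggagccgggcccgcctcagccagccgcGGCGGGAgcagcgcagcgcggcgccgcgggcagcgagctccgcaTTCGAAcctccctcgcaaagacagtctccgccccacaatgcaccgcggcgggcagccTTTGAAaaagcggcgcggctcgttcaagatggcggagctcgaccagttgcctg
RBL2: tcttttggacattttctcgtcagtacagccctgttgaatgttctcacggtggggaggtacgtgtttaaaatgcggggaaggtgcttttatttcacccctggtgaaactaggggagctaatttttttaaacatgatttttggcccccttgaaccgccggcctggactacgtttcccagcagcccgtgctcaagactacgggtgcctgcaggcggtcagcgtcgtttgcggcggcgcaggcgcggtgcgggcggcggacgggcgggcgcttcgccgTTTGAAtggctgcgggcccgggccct
The MYBL2 window held GGCGGGA at -39 to -33 from the start and no CHR match. The RBL1 window held 3 E2F matches, of which TTCGCGC at -25 to -19 and TTGGCGC at -15 to -9 lay closest to the start. This LIN9 window, 1 of 3 in the table, was chosen for its matches and held TTCGAA at -60 to -55, TTTGAA from -3 to 3 and GGCGGGA on both strands. The RBL2 window shown, 1 of 2 in the table, held TTTGAA at 25 to 30 and no E2F match, and the second RBL2 window held no match of either kind. Among all 35116 windows 16.4% held a CHR match, 21.6% an E2F match and 1.92% both. A match is a description of these letters and not a site shown to be bound.

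The libraries held 55181000 to 58623000 reads, counted in pairs, and values are reads scaled to library size (CPM). Ratios of CPM carry exact 95% intervals that cover counting error only. A change is the difference of log2(CPM + 1), which understates the change of low genes. A gene counted as 2-fold different when that difference was at least 1, provided the higher of the compared libraries reached 1 CPM. This rule of size carries no test and no replicate check, since each group is 1 library. CTNNA1, which is deleted in PC-3, stood at 656 (OICR-9429) and 499 CPM (DMSO) in DU145 and at 3.45 (OICR-9429) and 2.73 CPM (DMSO) in PC-3. Of the cell markers, EPCAM, KRT8, KRT18 and CDH1 (epithelial) summed to 335 to 885 CPM, and leukocyte markers to 0.935 to 3.99 CPM. Endothelial markers summed to 2.30 CPM (OICR-9429) and 2.79 CPM (DMSO) in DU145, and to 27.5 CPM (OICR-9429) and 18.5 CPM (DMSO) in PC-3, where PECAM1 held 27.2 CPM (OICR-9429) and 18.2 CPM (DMSO). The prostate luminal genes KLK2 and KLK3 were not listed in either line. Fibroblast markers summed to 3.85 CPM with OICR-9429 and 11.3 CPM with DMSO in DU145, and to 17.0 CPM with OICR-9429 and 69.0 CPM with DMSO in PC-3. COL1A1 made up most of each sum and DCN was not listed. Of the endothelial markers, VWF and CDH5 were not listed in PC-3. The samples are labelled as cell lines, and the source of the fibroblast and endothelial marker transcripts was not tested.

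RB1 transcript was present at similar levels in all 4 libraries, the line with the RB1 mutation included. It stood at 66.7 CPM in DU145 with OICR-9429 and 64.3 CPM in DU145 with DMSO. Its PC-3 values were 56.0 CPM with OICR-9429 and 57.0 CPM with DMSO. The ratio of OICR-9429 over DMSO was 1.04 (0.972 to 1.11) in DU145 and 0.981 (0.915 to 1.05) in PC-3, and both intervals include 1. In DU145 this depends on the scale, since TMM and median-of-ratios scaling raise every DU145 ratio by 0.19 and 0.24 on the log2 scale, which gave 1.18 and 1.23 for RB1. LPAR6, a receptor gene that lies inside an RB1 intron on the other strand, stood at 0.105 (OICR-9429) and 0.326 CPM (DMSO) in DU145 and at 10.3 (OICR-9429) and 10.1 CPM (DMSO) in PC-3. No exon base of RB1 is shared with another gene in GENCODE 29. RB1-DT, a lincRNA that starts 65 bp away on the other strand, stood at 0.387 (OICR-9429) and 0.761 CPM (DMSO) in DU145 and at 0.216 (OICR-9429) and 0.0682 CPM (DMSO) in PC-3.

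RBL1, the pocket protein that rises in cycling cells, had the widest gap in response between the lines among these genes. It stood at 31.1 CPM with OICR-9429 and 36.6 CPM with DMSO in DU145, a ratio of 0.848 (0.774 to 0.929) that became 1.00 under median-of-ratios scaling. PC-3 had 7.91 CPM with OICR-9429 and 55.4 CPM with DMSO, a ratio of 0.143 (0.123 to 0.164). The PC-3 library with OICR-9429 was thus the 1 low library, with the other 3 between 31.1 and 55.4 CPM. RBL2, the pocket protein of quiescent cells, stood at 90.6 CPM with OICR-9429 and 113 CPM with DMSO in DU145, a ratio of 0.804 (0.763 to 0.847). The PC-3 libraries held 42.4 CPM with OICR-9429 and 41.3 CPM with DMSO, a ratio of 1.03 (0.946 to 1.11). RBL2 thus followed the line more than the treatment. Of its exon bases 18.2% are shared with genes on the other strand, among them AKTIP at 31.6 (OICR-9429) and 28.2 CPM (DMSO) in DU145 and 23.3 (OICR-9429) and 16.1 CPM (DMSO) in PC-3, and whether strand was used in counting is not given.

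Within a library the pocket proteins can be set against each other per length, a comparison in which the library scale cancels. Levels are CPM per kilobase of all annotated exons. RBL1 made up 8.42% of the summed pocket protein level in PC-3 with OICR-9429 and 39.1% in PC-3 with DMSO. In DU145 it made up 18.7% with OICR-9429 and 19.5% with DMSO. RBL2 held the largest share in both DU145 libraries, 44.3% with OICR-9429 and 48.8% with DMSO. In PC-3 its share was 36.7% with OICR-9429 and 23.7% with DMSO. RB1 held 37.0% (OICR-9429) and 31.6% (DMSO) in DU145, and 54.9% (OICR-9429) and 37.2% (DMSO) in PC-3. The composition of the pocket protein transcripts therefore differed with treatment mainly in PC-3.

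**Figure D1:**
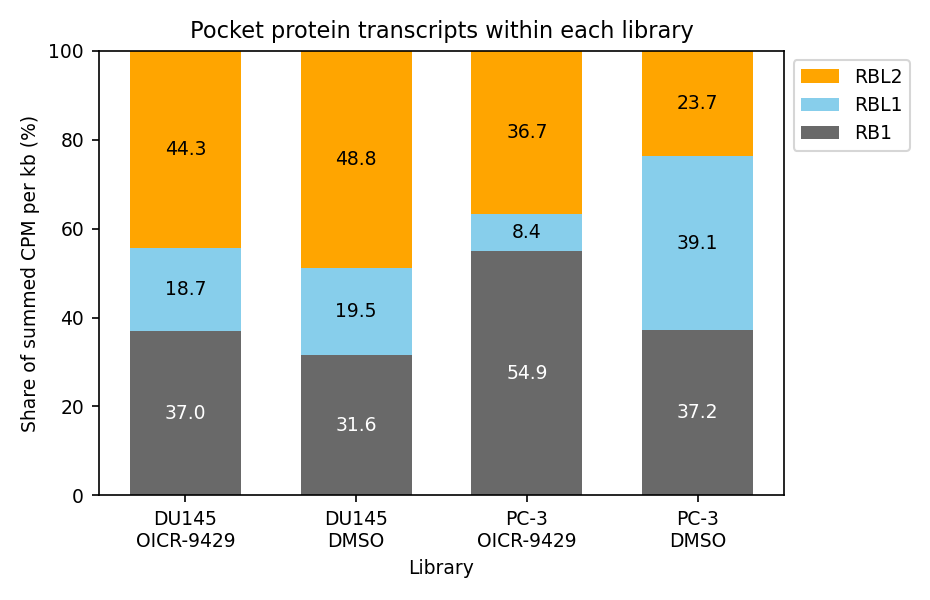
Share of RB1, RBL1 and RBL2 in the summed CPM per kilobase of the pocket protein genes (y axis, percent) in each of the 4 libraries (x axis). RBL1 takes 8.42% in PC-3 with OICR-9429 and 39.1% in PC-3 with DMSO, while its share in the DU145 libraries is 18.7% and 19.5%.

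Of the MuvB core, LIN9 stood lower in both lines, while the DNA-binding subunit LIN54 and the subunit LIN52 did not reach 2-fold in either. LIN9, a scaffold of the core, stood at 11.1 CPM with OICR-9429 and 26.6 CPM with DMSO in DU145. Its PC-3 values were 19.8 CPM with OICR-9429 and 46.9 CPM with DMSO. The ratios were 0.416 (0.363 to 0.475) in DU145 and 0.421 (0.381 to 0.466) in PC-3, and their intervals overlap. Both treated libraries were below both DMSO libraries. Under median-of-ratios scaling LIN9 missed the 2-fold rule in DU145, with a change of -0.96.

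LIN52, whose phosphorylation by DYRK1A assembles DREAM, stood at 19.0 CPM with OICR-9429 and 25.7 CPM with DMSO in DU145, a ratio of 0.739 (0.660 to 0.828). PC-3 had 12.4 CPM with OICR-9429 and 10.4 CPM with DMSO, a ratio of 1.20 (1.02 to 1.40). LIN54, which binds the CHR, stood at 18.2 (OICR-9429) and 22.3 CPM (DMSO) in DU145, and at 20.1 (OICR-9429) and 19.8 CPM (DMSO) in PC-3. All 4 LIN54 values lay within this narrow range. RBBP4, a histone-binding protein shared with several chromatin complexes, stood at 180 CPM with OICR-9429 and 188 CPM with DMSO in DU145, a ratio of 0.955 (0.919 to 0.993) that became 1.13 under median-of-ratios scaling. The PC-3 libraries held 138 CPM with OICR-9429 and 213 CPM with DMSO, a ratio of 0.645 (0.619 to 0.672). SYNC, on the other strand, shares 18.0% of the RBBP4 exon bases and stood at 1.37 to 8.06 CPM. ZBTB8OS, which starts 239 bp from RBBP4, stood at 23.0 (OICR-9429) and 26.0 CPM (DMSO) in DU145 and at 15.9 (OICR-9429) and 21.3 CPM (DMSO) in PC-3.

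LIN37, the subunit needed for repression by DREAM, was close to the floor of 3 fragments and did not enter the test across lines. It stood at 0.211 CPM in DU145 with OICR-9429 and 0.145 CPM in DU145 with DMSO, which are 6 and 4 fragments. Its PC-3 values were 0.432 CPM with OICR-9429 and 0.171 CPM with DMSO, which are 12 and 5 fragments. In GENCODE 29, 54.0% of the LIN37 exon bases are shared with other genes, of which AD000671.1 on the same strand covers 26.7% and the antisense gene AD000671.3 covers 41.8%. How reads shared between genes were counted is not given, and the part of this overlap in the low LIN37 value was not tested.

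Per kilobase of exon, RBBP4 was the highest core subunit in every library, at 19.0 (OICR-9429) and 19.9 CPM per kilobase (DMSO) in DU145 and 14.5 (OICR-9429) and 22.5 (DMSO) in PC-3. LIN9 reached 2.49 (OICR-9429) and 6.0 CPM per kilobase (DMSO) in DU145 and 4.45 (OICR-9429) and 10.6 (DMSO) in PC-3. LIN54 stood at 2.70 (OICR-9429) and 3.30 CPM per kilobase (DMSO) in DU145 and at 2.97 (OICR-9429) and 2.92 (DMSO) in PC-3. LIN9 was thus above LIN54 in both DMSO libraries and slightly below it in DU145 with OICR-9429. LIN52 stood at 5.15 (OICR-9429) and 6.97 CPM per kilobase (DMSO) in DU145 and at 3.37 (OICR-9429) and 2.82 (DMSO) in PC-3.

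**Figure D2:**
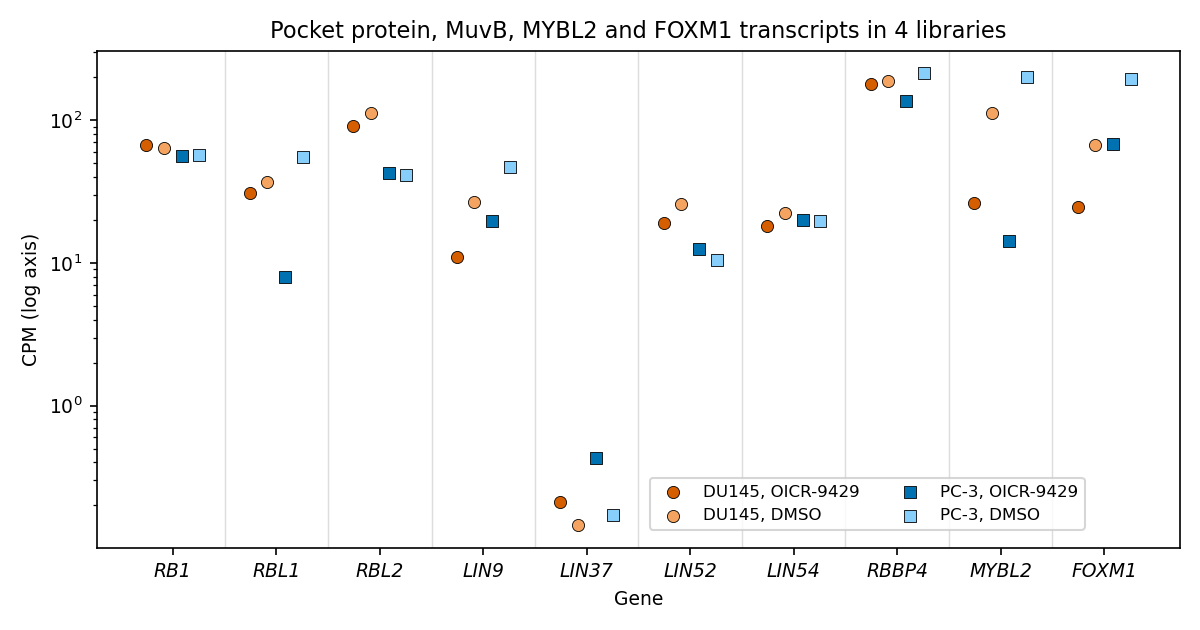
CPM on a log axis (y) of each gene (x), with 1 point for each of the 4 libraries. RB1 and LIN54 sit at nearly the same height in all 4, MYBL2 spans 14.2 to 201 CPM, and LIN37 lies below 1 CPM.

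MYBL2 and FOXM1, the activators that take over from DREAM, stood lower with OICR-9429 in both lines. MYBL2 stood at 26.3 CPM with OICR-9429 and 112 CPM with DMSO in DU145, a ratio of 0.235 (0.216 to 0.254). PC-3 had 14.2 CPM with OICR-9429 and 201 CPM with DMSO, a ratio of 0.0705 (0.0635 to 0.0780). Both treated libraries lay below both DMSO libraries, and the lowest and the highest value were both in PC-3. FOXM1 stood at 24.7 CPM with OICR-9429 and 67.5 CPM with DMSO in DU145, a ratio of 0.366 (0.335 to 0.399). The PC-3 libraries held 68.1 CPM with OICR-9429 and 194 CPM with DMSO, a ratio of 0.352 (0.334 to 0.371). The FOXM1 level of PC-3 with OICR-9429 was close to that of DU145 with DMSO, so treated and DMSO libraries separate only within a line. ITFG2, on the other strand, shares 15.9% of the FOXM1 exon bases and stood at 7.21 to 9.14 CPM. TULP3, which starts 68 bp from FOXM1 on the other strand, stood at 50.2 (OICR-9429) and 47.7 CPM (DMSO) in DU145 and at 53.2 (OICR-9429) and 35.9 CPM (DMSO) in PC-3, not lower with OICR-9429.

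By the rule of size, 3 of 9 genes were lower in DU145 (LIN9, MYBL2, FOXM1) and 4 of 9 in PC-3 (those and RBL1), with 0 higher in either line; LIN37 did not reach 1 CPM. Among all genes that reached 1 CPM, 8.01% were lower, 0.999% higher and 9.01% either in DU145 (1291 and 161 genes; 762 and 327 under median-of-ratios scaling). In PC-3 8.68% were lower, 7.15% higher and 15.8% either. The median change of the 9 genes was -0.31 in DU145, against -0.18 over all genes, and it was -0.07 against 0.06 under median-of-ratios scaling. In PC-3 it was -0.63, against -0.01 over all genes. The changes of MYBL2 differed by 1.69 on the log2 scale between DU145 (-2.05) and PC-3 (-3.74), those of RBL1 by 2.43 (-0.23 and -2.66), those of FOXM1 by 0.08 (-1.42 and -1.49) and those of LIN9 by 0.01 (-1.19 and -1.21). With 1 library a group these differences between lines were not tested.

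**Figure D3:**
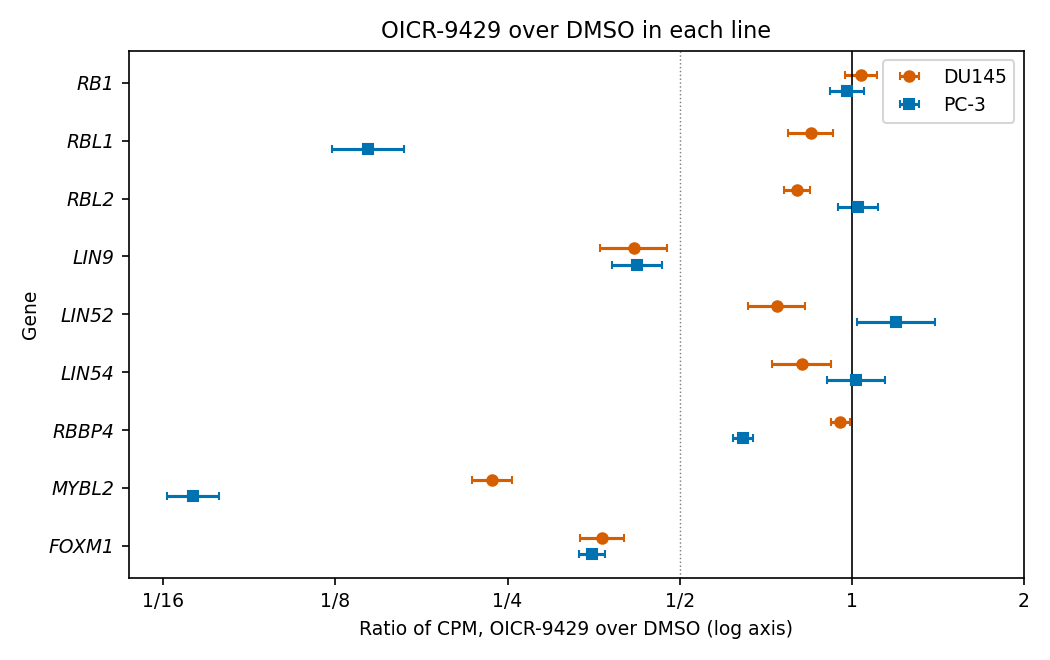
Ratio of CPM, OICR-9429 over DMSO (x, log axis), for each gene except LIN37 (y) in DU145 and PC-3, with exact 95% counting intervals and a dotted line at 1/2. The intervals of LIN9 and FOXM1 overlap between the lines, while MYBL2 and RBL1 are further left in PC-3.

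With the lines as the only replication, treatment was tested by limma with trend on all 14976 genes, with line and treatment as terms. The log2 level of MYBL2 fell by 2.89 ± 0.38 (SE; limma, Benjamini-Hochberg adjusted p = 0.00129), lower in 2 of 2 lines. FOXM1 fell by 1.45 ± 0.30 (limma, adjusted p = 0.0271), lower in 2 of 2 lines. These were 2 of 9 genes that fell and 0 that rose, against 1.16% and 0.12% of all genes (1.28% either way). By edgeR, which called 1.05% of all genes lower and 0.0868% higher, both passed too (adjusted p = 0.00386 for MYBL2 and 0.0432 for FOXM1). The edgeR fit used library size alone, without TMM factors, so it does not check the scaling. Under median-of-ratios scaling FOXM1 no longer passed (limma, adjusted p = 0.145), and the alternatives that kept the line term ranged from 0.0235 to 0.145. MYBL2 passed in each of these, from 2.03e-06 to 0.0289, and neither gene passed in the fit without a line term.

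RBL1 (-1.45 ± 0.48, limma, adjusted p = 0.247) and LIN9 (-1.20 ± 0.36, limma, adjusted p = 0.184) did not pass. For RBL1 nearly all of the average came from PC-3. RB1 had an average change of 0.01 ± 0.30 (limma, adjusted p = 0.998) and RBL2 one of -0.14 ± 0.30 (limma, adjusted p = 0.968). RBBP4, LIN52 and LIN54 did not pass either, with averages of -0.35, -0.09 and -0.13. The fit has 1 residual degree of freedom, so its errors rest mostly on the trend over all genes (12.8 prior degrees of freedom).

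Set against RBL2 in the same library, MYBL2 transcript per kilobase was 0.766 times RBL2 in DU145 with OICR-9429 and 2.62 times with DMSO. In PC-3 it was 0.882 times RBL2 with OICR-9429 and 12.8 times with DMSO. MYBL2 was thus below RBL2 in both treated libraries and above it in both DMSO libraries, a statement that no library scaling alters. FOXM1 per kilobase was 0.407 times RBL2 in DU145 with OICR-9429 and 0.895 times with DMSO, and 2.40 (OICR-9429) and 7.01 (DMSO) times in PC-3. MYBL2 over LIN9, its partner in the activating complex, was 3.80 in DU145 with OICR-9429 and 6.74 with DMSO, and 1.15 (OICR-9429) and 6.85 (DMSO) in PC-3. The MYBL2 to LIN9 ratio was therefore nearly equal in the DMSO libraries of both lines. Since MYBL2 over FOXM1 was 1.88 (OICR-9429) and 2.93 (DMSO) in DU145 and 0.367 (OICR-9429) and 1.83 (DMSO) in PC-3, PC-3 with OICR-9429 was the 1 library with less MYBL2 than FOXM1 per kilobase.

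The DMSO libraries compare the RB1-mutant line with the line that retains RB1, and RB1 status cannot be told apart from the other differences between the lines or from the medium. DU145 stood higher than PC-3 for RBL2, with 113 CPM against 41.3 CPM, a ratio of 2.73 (2.55 to 2.92), and for LIN52, with 25.7 CPM against 10.4 CPM, a ratio of 2.47 (2.16 to 2.84). It stood lower for FOXM1, with 67.5 CPM against 194 CPM, a ratio of 0.349 (0.331 to 0.367). RB1 itself stood at 64.3 CPM in DU145 and 57.0 CPM in PC-3, a ratio of 1.13 (1.05 to 1.21) that became 0.889 under TMM and 0.851 under median-of-ratios scaling. MYBL2 stood at 112 CPM in DU145 and 201 CPM in PC-3, a ratio of 0.558 (0.534 to 0.583), and LIN9 at 26.6 CPM in DU145 and 46.9 CPM in PC-3, a ratio of 0.567 (0.518 to 0.621). RBL1 had a ratio of 0.661 (0.610 to 0.715), RBBP4 one of 0.883 (0.851 to 0.917) and LIN54 one of 1.13 (1.01 to 1.27) that became 0.853 under median-of-ratios scaling.

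Thus 2 of 9 genes were higher and 1 lower in DU145 by the rule of size, against 24.9% and 11.0% of all genes, 35.9% either way (3949 and 1750; 2617 and 2932 under median-of-ratios scaling). The counts are close to this background. TMM and median-of-ratios scaling shift DU145 against PC-3 by -0.34 and -0.41 on the log2 scale. Under either, LIN52 missed the rule, MYBL2 and LIN9 passed it as lower, and RBL2 and FOXM1 kept their side. Over both treatments, the limma line term was higher in DU145 for RBL2 (1.25 ± 0.30, limma, adjusted p = 0.00671) and lower for FOXM1 (-1.47 ± 0.30, limma, adjusted p = 0.00224). That is 1 of 9 genes in each direction, as with edgeR (19.0% and 10.4% of all genes), against 20.5% and 11.2% with limma, 31.7% either way (3068 and 1681; 2050 and 2233 under median-of-ratios scaling). MYBL2 did not pass (0.01 ± 0.38, limma, adjusted p = 0.992), and its order between the lines was opposite in the treated and the DMSO libraries.

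**Figure D4:**
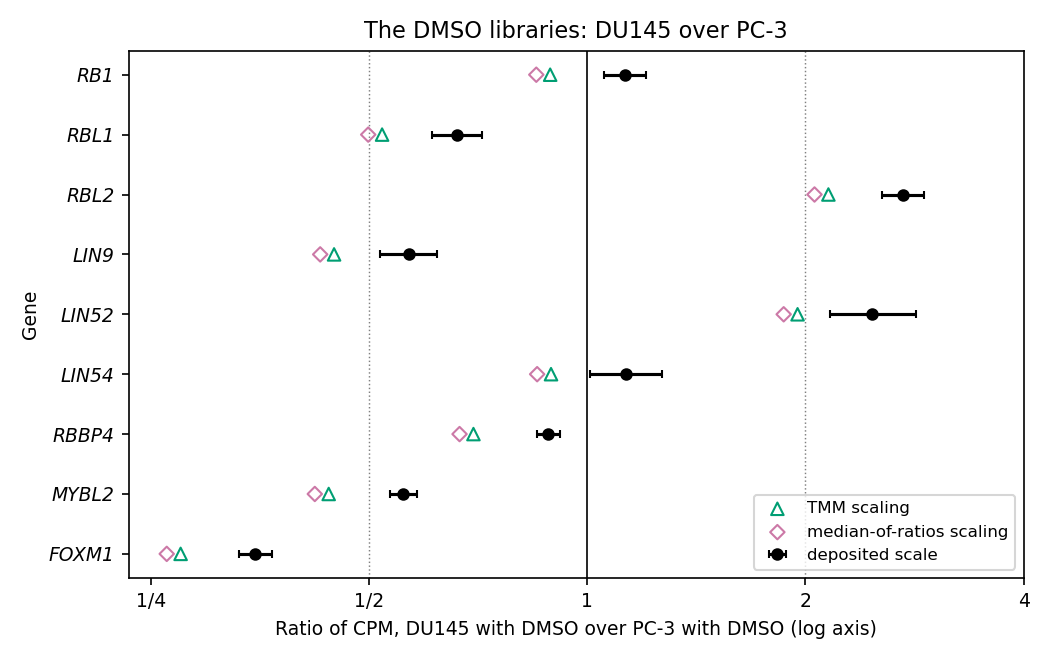
Ratio of CPM, DU145 with DMSO over PC-3 with DMSO (x, log axis), for each gene except LIN37 (y), with exact 95% counting intervals on the deposited scale and open symbols for TMM and median-of-ratios scaling. RBL2 stays above 2 and FOXM1 below 1/2 on each scale, while with scaling RB1 and LIN54 cross 1, LIN52 falls below 2, and MYBL2, LIN9 and, under median-of-ratios scaling, RBL1 fall below 1/2.

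Of the DREAM partners, 1 of 6 differed by 2-fold, in PC-3, where 15.8% of all genes did (9.01% in DU145). TFDP1, the common dimer partner of E2Fs, stood at 63.6 CPM with OICR-9429 and 186 CPM with DMSO in PC-3, a ratio of 0.341 (0.323 to 0.360). The DU145 values were 151 CPM with OICR-9429 and 131 CPM with DMSO, with a ratio of 1.15 (1.10 to 1.20). E2F4, the main repressive E2F of DREAM, stood at 103 (OICR-9429) and 116 CPM (DMSO) in DU145, and at 73.2 (OICR-9429) and 95.7 CPM (DMSO) in PC-3. E2F5, its close relative, stood at 14.4 (OICR-9429) and 18.2 CPM (DMSO) in DU145 and at 30.5 (OICR-9429) and 20.4 CPM (DMSO) in PC-3. DYRK1A stood at 82.5 (OICR-9429) and 85.9 CPM (DMSO) in DU145, and at 88.7 (OICR-9429) and 66.3 CPM (DMSO) in PC-3. TFDP2 stood at 65.8 (OICR-9429) and 104 CPM (DMSO) in DU145 and at 31.9 (OICR-9429) and 42.6 CPM (DMSO) in PC-3, and RBBP7, a paralog of RBBP4, at 165 (OICR-9429) and 172 CPM (DMSO) in DU145 and at 124 (OICR-9429) and 213 CPM (DMSO) in PC-3. Their median change was -0.11 in DU145 (0.13 after median-of-ratios scaling). It was -0.39 for the PC-3 pair. Across the lines 0 of 6 passed with limma or edgeR, and 0 had an unadjusted p under 0.05 with either (1332 and 1271 of all 14976 genes).

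Of the E2F family 3 members fell across the lines, where 1.16% of all genes fell with limma and 1.05% with edgeR. E2F1, an activating E2F held by RB1, stood at 26.2 CPM with OICR-9429 and 65.9 CPM with DMSO in DU145, and at 7.19 (OICR-9429) and 82.1 CPM (DMSO) in PC-3. E2F2, also an activator, stood at 3.83 (OICR-9429) and 18.7 CPM (DMSO) in DU145 and at 0.216 (OICR-9429) and 21.2 CPM (DMSO) in PC-3, where the treated value is 6 fragments. E2F8, an atypical repressor, stood at 3.02 (OICR-9429) and 16.1 CPM (DMSO) in DU145 and at 1.62 (OICR-9429) and 32.5 CPM (DMSO) in PC-3. E2F1, E2F2 and E2F8 were the 3 of 8 that fell across the lines with limma (adjusted p = 0.0140, 0.00567 and 0.00567), and the same 3 passed with edgeR. Under median-of-ratios scaling 2 of 8 passed and E2F1 did not; its adjusted p ranged from 0.00162 to 0.123 over the alternatives that kept the line term (limma, edgeR and DESeq2). E2F3, another activator, stood at 52.1 (OICR-9429) and 42.3 CPM (DMSO) in DU145 and at 28.4 (OICR-9429) and 64.0 CPM (DMSO) in PC-3, lower by 2-fold in PC-3 alone. E2F7, the other atypical repressor, stood at 10.3 (OICR-9429) and 17.8 CPM (DMSO) in DU145 and at 82.8 (OICR-9429) and 63.3 CPM (DMSO) in PC-3. E2F6, a repressor that needs no pocket protein, stood at 42.6 (OICR-9429) and 41.0 CPM (DMSO) in DU145 and at 18.0 (OICR-9429) and 24.5 CPM (DMSO) in PC-3.

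Among the kinases and cyclins that phosphorylate pocket proteins, CCNA2 fell across the lines (-2.56 ± 0.36, limma, adjusted p = 0.0017). It encodes cyclin A2 and stood at 14.5 (OICR-9429) and 67.2 CPM (DMSO) in DU145 and at 8.74 (OICR-9429) and 76.0 CPM (DMSO) in PC-3. CCND1, which encodes cyclin D1, stood at 740 CPM with OICR-9429 and 335 CPM with DMSO in DU145, a ratio of 2.21 (2.15 to 2.26). PC-3 had 507 CPM with OICR-9429 and 1007 CPM with DMSO, a ratio of 0.504 (0.494 to 0.514) and a change of -0.99, just short of the rule. CDK2 stood at 31.0 (OICR-9429) and 48.1 CPM (DMSO) in DU145 and at 7.95 (OICR-9429) and 37.2 CPM (DMSO) in PC-3. CCNE1 stood at 19.5 (OICR-9429) and 15.5 CPM (DMSO) in DU145 and at 2.84 (OICR-9429) and 6.89 CPM (DMSO) in PC-3, and CCNE2 at 5.77 (OICR-9429) and 5.80 CPM (DMSO) in DU145 and at 3.81 (OICR-9429) and 15.9 CPM (DMSO) in PC-3. CDK4 stood at 45.4 (OICR-9429) and 53.5 CPM (DMSO) in DU145 and at 62.7 (OICR-9429) and 72.8 CPM (DMSO) in PC-3, CDK6 at 21.9 (OICR-9429) and 28.5 CPM (DMSO) in DU145 and at 54.2 (OICR-9429) and 107 CPM (DMSO) in PC-3, and CCND3 at 35.1 (OICR-9429) and 39.9 CPM (DMSO) in DU145 and at 60.9 (OICR-9429) and 63.8 CPM (DMSO) in PC-3. CCND2 stayed under 1 CPM. By the rule of size 1 of 8 was higher and 1 lower in DU145, and 4 of 8 were lower in PC-3. Of all genes 0.999% were higher and 8.01% lower in DU145, and 8.68% were lower in PC-3.

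The inhibitors of these kinases differed in direction. CDKN1A (p21) rose across the lines (1.95 ± 0.32, limma, adjusted p = 0.00505), with 268 CPM with OICR-9429 and 91.3 CPM with DMSO in DU145 and 188 (OICR-9429) and 36.1 CPM (DMSO) in PC-3. CDKN2B (p15) stood at 23.2 (OICR-9429) and 31.7 CPM (DMSO) in DU145 and at 423 (OICR-9429) and 54.0 CPM (DMSO) in PC-3. CDKN2A, whose product p16 acts through RB1, stood at 274 (OICR-9429) and 384 CPM (DMSO) in DU145 and at 240 (OICR-9429) and 111 CPM (DMSO) in PC-3. CDKN1B (p27) stood at 63.2 (OICR-9429) and 82.5 CPM (DMSO) in DU145 and at 35.5 (OICR-9429) and 20.1 CPM (DMSO) in PC-3. With DMSO, DU145 over PC-3 gave ratios of 4.10 (3.74 to 4.50) for CDKN1B, 3.46 (3.33 to 3.60) for CDKN2A and 2.53 (2.35 to 2.72) for CDKN1A. These were the 3 of 7 inhibitors that stood 2-fold higher, against 24.9% of all genes. CDKN1A missed the rule under TMM and median-of-ratios scaling, and under these CDKN2B passed it as lower in DU145 (ratios of 0.463 and 0.443). Either scaling thus gave 2 of 7 higher and 1 lower. Over all genes TMM scaling gave 2789 higher and 2700 lower, and median-of-ratios scaling 2617 and 2932. Over both treatments the line term was higher in DU145 for CDKN1B (limma, adjusted p = 0.00825) and CDKN1A (limma, adjusted p = 0.0423, and edgeR, adjusted p = 0.0659). That of CDKN2A did not pass (limma, adjusted p = 0.0705). CDKN2B stood lower in DU145 (-2.44 ± 0.55, limma, adjusted p = 0.00401, and edgeR, adjusted p = 0.0147). Thus 2 of 7 were higher and 1 lower with limma, and 1 and 1 with edgeR. The shares of all genes were 20.5% and 11.2% with limma, and 19.0% and 10.4% with edgeR. CDKN2C stood at 20.8 (OICR-9429) and 37.5 CPM (DMSO) in DU145 and at 14.3 (OICR-9429) and 53.4 CPM (DMSO) in PC-3, CDKN2D at 4.04 (OICR-9429) and 10.2 CPM (DMSO) in DU145 and at 10.9 (OICR-9429) and 9.35 CPM (DMSO) in PC-3, and CDKN1C at 4.68 (OICR-9429) and 8.81 CPM (DMSO) in DU145 and at 13.2 (OICR-9429) and 4.47 CPM (DMSO) in PC-3. By the rule of size 1 of 7 was higher and 1 lower in DU145, and 4 were higher and 1 lower in PC-3. The shares of all genes were 0.999% higher and 8.01% lower in DU145, and 7.15% and 8.68% in PC-3. The lower one in DU145, CDKN2D, missed the rule under TMM and median-of-ratios scaling.

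Of 13 corepressors that RB1 or DREAM can recruit, 0 differed by 2-fold in DU145 and 3 were lower in PC-3. Of all genes 9.01% differed in DU145 and 8.68% were lower in PC-3. SUV39H1, a histone H3K9 methyltransferase, stood at 6.26 (OICR-9429) and 29.1 CPM (DMSO) in PC-3, DNMT1, the maintenance DNA methyltransferase, at 121 (OICR-9429) and 540 CPM (DMSO), and EZH2, a histone H3K27 methyltransferase, at 29.4 (OICR-9429) and 76.7 CPM (DMSO). In DU145 SUV39H1 stood at 4.92 (OICR-9429) and 10.6 CPM (DMSO), DNMT1 at 254 (OICR-9429) and 289 CPM (DMSO), and EZH2 at 60.7 (OICR-9429) and 69.2 CPM (DMSO). Across the lines 0 of 13 passed with limma or edgeR (3 at an unadjusted p under 0.05 with each, against 1332 and 1271 of all 14976 genes). SMARCA4, a remodelling ATPase that RB1 can bind, stood at 27.2 (OICR-9429) and 31.2 CPM (DMSO) in DU145 and at 283 (OICR-9429) and 484 CPM (DMSO) in PC-3. Its ratio of DU145 over PC-3 with DMSO was 0.0645 (0.0601 to 0.0691).

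The known targets of these factors were counted in lists drawn from general knowledge, with earlier results of these data known. Of 43 genes of G2 and mitosis that DREAM represses and MYBL2 and FOXM1 activate, 42 were lower by 2-fold in DU145 and all 43 in PC-3, with medians of -2.29 and -2.90. Of all genes 8.01% were lower in DU145 and 8.68% in PC-3. ECT2, named after its values were seen, was the exception in DU145, at 137 CPM with OICR-9429 and 251 CPM with DMSO. AURKB, a mitotic kinase, stood at 7.45 (OICR-9429) and 64.6 CPM (DMSO) in DU145 and at 3.45 (OICR-9429) and 47.6 CPM (DMSO) in PC-3. MKI67, the proliferation marker, stood at 100.1 (OICR-9429) and 486 CPM (DMSO) in DU145 and at 28.7 (OICR-9429) and 472 CPM (DMSO) in PC-3. KIF20A, a mitotic kinesin, and CDK1, the mitotic kinase, had ratios of 0.138 and 0.175 in DU145 and of 0.0834 and 0.0784 in PC-3. Across the lines 40 of 43 fell with limma and 40 with edgeR, against 1.16% and 1.05% of all genes. CCNF, ECT2 and CKS2, named after their values were seen, did not pass (limma, adjusted p = 0.0924, 0.0522 and 0.277).

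Of 42 G1/S genes that E2F drives, 11 were lower by 2-fold in DU145, or 8 after median-of-ratios scaling, while 41 were lower in PC-3, with medians of -0.71 and -2.23. The shares of all genes were 8.01% in DU145 and 8.68% in PC-3. SLBP, a histone mRNA binding protein named after its values were seen, was the exception in PC-3, at 46.2 CPM with OICR-9429 and 62.7 CPM with DMSO. RRM2, a ribonucleotide reductase subunit, stood at 42.3 (OICR-9429) and 199 CPM (DMSO) in DU145 and at 3.85 (OICR-9429) and 138 CPM (DMSO) in PC-3. UHRF1, a reader of hemimethylated DNA, stood at 70.3 (OICR-9429) and 116 CPM (DMSO) in DU145 and at 7.48 (OICR-9429) and 242 CPM (DMSO) in PC-3. MCM10, a replication factor, and TK1, thymidine kinase, had ratios of 0.406 and 0.281 in DU145 and of 0.0347 and 0.112 in PC-3. Across the lines 12 of 42 fell with limma, 7 with edgeR and 3 under median-of-ratios scaling. Over all genes 173, 157 and 90 fell. RBL1, with changes of -0.23 in DU145 and -2.66 in PC-3, shared the order of these medians. FOXM1, with -1.42 and -1.49, stood closer to 0 than the G2/M medians in both lines.

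**Figure D5:**
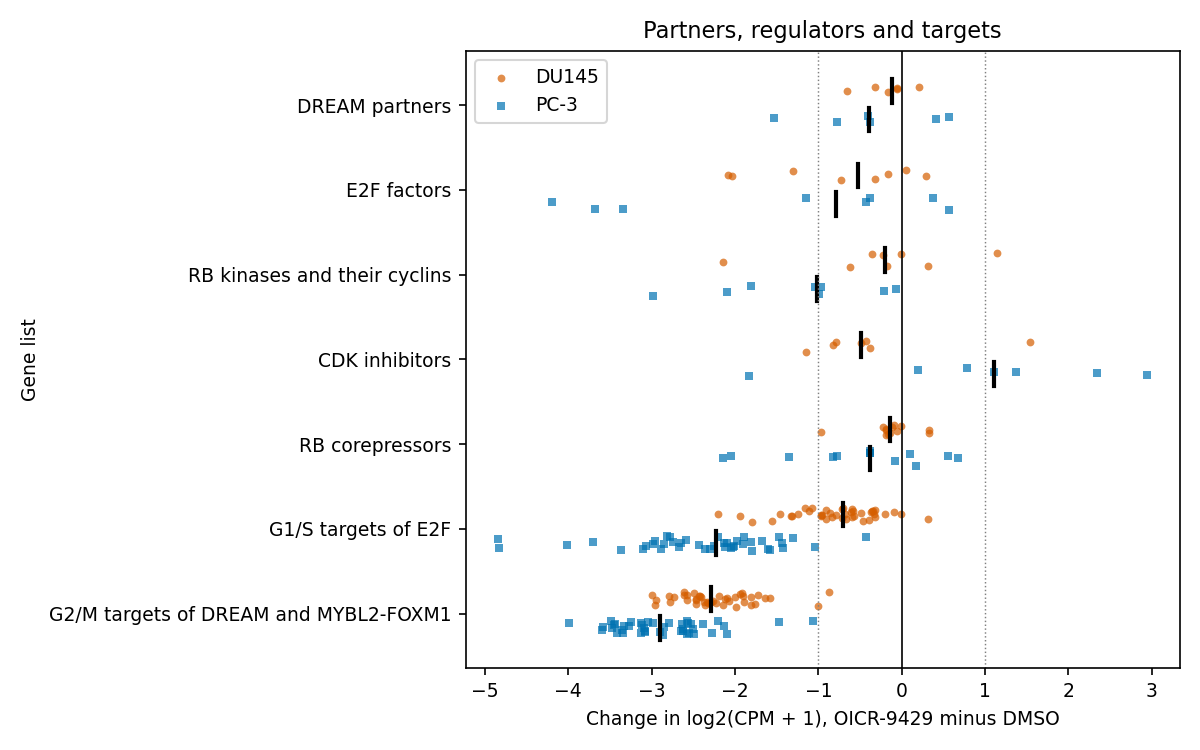
Change in log2(CPM + 1), OICR-9429 minus DMSO (x), of each gene in 7 lists (y) in DU145 and PC-3, with black bars at the medians and dotted lines at 2-fold. G2/M targets lie left of the 2-fold line in both lines except ECT2 in DU145, while G1/S targets have medians of -0.71 in DU145 and -2.23 in PC-3.

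The promoter windows of the target lists differed in these letters. Of 43 windows of G2/M targets (36 genes) 72.1% held a CHR match and 41.9% an E2F match. Of 48 windows of G1/S targets (38 genes) 4.17% held a CHR match and 77.1% an E2F match. Over all windows the shares were 16.4% and 21.6%. These lists name genes known for such elements, so the shares describe the lists and are not independent of them. The only RB1 window lies at a start inside the gene, so the main RB1 promoter was not searched. Of the other 8 genes with windows, 4 held a CHR match (RBL2, LIN9, LIN37, LIN54) and 7 an E2F match, and those 7 include LIN52, LIN54 and RBBP4, which did not reach 2-fold in either line.

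The genes nearest in pattern were sought among 12712 genes over 5 CPM, by the distance between the 4 centred log2(CPM + 1) values. For RBL1 they were FEN1 (distance 0.10), TYMS, SKA2, WNT3 and MCM3 (0.28). FEN1, a flap endonuclease of DNA replication, stood at 54.0 (OICR-9429) and 68.9 CPM (DMSO) in DU145 and at 14.2 (OICR-9429) and 101 CPM (DMSO) in PC-3. For MYBL2 they were E2F8 (0.19), FAM83D, ASF1B, ANLN and CDK1 (0.31). For FOXM1 they were OXTR (0.23), POC1A, MYPN, CCDC34 and ARHGAP28 (0.42). OXTR, the oxytocin receptor, stood at 3.09 (OICR-9429) and 9.42 CPM (DMSO) in DU145 and at 11.2 (OICR-9429) and 35.4 CPM (DMSO) in PC-3. With 4 libraries many genes can share a pattern, and likeness here is a description only.

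The neighbours of RB1 on chromosome 13 had a median of -0.66 at baseline, DU145 minus PC-3, with 0 of 7 higher and 2 lower (LPAR6 and RCBTB2), against 24.9% and 11.0% of all genes. The count depends on the scale: 3 were lower after TMM scaling, and 4 after median-of-ratios scaling with a median of -1.05. ITM2B stood at 173 CPM in DU145 and 118 CPM in PC-3 with DMSO, FNDC3A at 117 and 64.8 CPM, MED4 at 13.3 and 11.7 CPM, SUCLA2 at 30.9 and 49.4 CPM, and RCBTB2 at 1.09 and 4.71 CPM. ITM2B, FNDC3A and MED4 thus stood higher in DU145, and SUCLA2, RCBTB2 and LPAR6 in PC-3. For the treatment effect across the lines 0 of 7 passed with limma or edgeR (1 at an unadjusted p under 0.05 with each, against 1332 and 1271 of all 14976 genes). The line term over both treatments was lower in DU145 for 1 of 7 and higher for 0, with limma and with edgeR. Of all genes 11.2% were lower and 20.5% higher with limma, and 10.4% and 19.0% with edgeR. Under TMM scaling 2 of 7 were lower (2440 of all 14911 genes).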

How the data were processed

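As deposited, each table pairs Ensembl identifiers with CPM values: reads counted per gene and divided by the authors by library size, per the file headers ("normalize") and the values' sums of 999788 to 999896. Per the submitters' processing notes the tools include HTSeq 0.6.1, HISAT2 2.1.0 and bcl2fastq 2.19.1, and the build is hg19. The sources used here give neither the annotation nor the strand setting nor how shared reads were treated. At least 99.99% of values were whole multiples (within 0.01) of 1 step per library, so whole reads were recovered; they came in pairs, and values of exactly 1 step stood where the other library of the line had at least 10 reads and were taken as 0 fragments. DU145 thus had 28444000 fragments with OICR-9429 and 27591000 with DMSO, and PC-3 27798000 with OICR-9429 and 29312000 with DMSO. Intervals cover counting error only; whether PCR duplicates were removed is not given in the labels. At this depth 3 fragments are 0.102 to 0.109 CPM, and a gene not listed has no value.

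Symbols came from current gene names for 27302 of 27658 identifiers; exon lengths and overlaps are from GENCODE 29 (GRCh38), another build than hg19. Ratios have exact conditional binomial 95% intervals on fragments. limma 3.58.1 was fitted to log2(CPM + 1) for genes over 1 CPM in at least 2 libraries, with Benjamini-Hochberg adjustment over all genes at 0.05; edgeR 4.0.16 and DESeq2 1.42.0 on the recovered fragments, other scalings, a pseudocount of 0.1 and other filters were alternatives, and the count test on the recovered reads by edgeR called 13 genes higher and 157 lower. The fit was also run on simulated data with no line effect and equal responses in both lines. That run does not show how the fit handles lines that respond unequally. With 1 library a group, replicates could not be compared or left out. Members and lists were chosen with earlier results of these data known. Named genes were all 10 members, all members of the short lists, 4 per longer list by the mean of their 2 changes, any past the size rule against most of their list (none found), the 5 nearest in pattern to RBL1, MYBL2 and FOXM1, genes overlapping a member, and CTNNA1; 2 overlapping genes under 0.2 CPM are not given. Some genes of the lists are not reported here.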

Additional observations from a re-analysis of the deposited data

Results flagged for a closer look

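LIN52 differed in direction between the lines. It was lower with OICR-9429 in DU145 (a log2 change of -0.42) and higher in PC-3 (0.24), a difference of -0.65, and both counting intervals exclude 1 on the deposited scale. The difference rests on 1 library a group and was not tested.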

How the results depend on the processing

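Of the recounts of the pocket protein, MuvB, MYBL2 and FOXM1 genes under the alternatives, 51 stayed within 1.5 times and 9 did not. In DU145 median-of-ratios scaling left 2 genes lower in place of 3, which is within 1.5 times. Of the results for single genes, 229 kept their size or call and 35 sizes moved beyond counting error. A call was gained in 3 and lost in 3. The moves came under TMM and median-of-ratios scaling, in DU145 and at baseline. At baseline, both TMM and median-of-ratios scaling gave 3 genes lower and 1 higher in DU145, in place of 1 and 2. Median-of-ratios scaling left 1 gene falling across the lines in place of 2, and the fit without a line term left 0 (limma; 230 of all genes had an unadjusted p under 0.05). The line term gave 2 genes lower in DU145, in place of 1, under TMM scaling, median-of-ratios scaling and DESeq2, the added gene being LIN9 (adjusted p = 0.0375, 0.0439 and 0.0425; 0.0375 to 0.121 over all alternatives). The cause was not tested. No called gene reversed direction. Over all genes, 18 rose and 173 fell across the lines with limma, 9 and 90 under median-of-ratios scaling, and 59 and 242 with DESeq2. The labels carry no replicate numbers, and the line term of the fit pairs the treated and the DMSO library of each line. Leaving out a library would leave that fit no residual degrees of freedom, so it was not run. Among the 10 genes LIN37 alone had few fragments, 4 to 12 a library. The part of depth and of shared exons in this was not tested.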
